A study of Oryza sativa with 2 samples.

Results

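The genes described here carry the names of DNA replication fork proteins, which load and hold the sliding clamp or coat single-stranded DNA. They are PCNA, the subunits of replication protein A (RPA) and the subunits of replication factor C (RFC). They were taken by name, as genes whose symbol or synonym in the rice gene table is PCNA, RPA with a digit and an optional letter, or RFC with a digit. The rule found 13 genes, 1 for PCNA, 7 for RPA and 5 for RFC, of 17905 genes that had a probe set listed for a single gene. The rule used no measured value.

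The series holds 2 samples of endosperm, the seed tissue that feeds the embryo, picked under a dissecting microscope at 2 days after pollination from the japonica rice cultivar Zhonghua11. Plants grew in a phytotron in 12 h days at 28 °C and 12 h nights at 22 °C. The labels place this stage before cellularization and give 1 group, with no treatment, altered allele, further tissue or later stage, so no effect of a condition can be read and what follows describes how bright each gene was on each array. Each sample was hybridized to 1 Affymetrix rice array. Nothing in the labels says that separate plants were used for each, so differences between the arrays may be technical.

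PCNA is a ring-shaped clamp that slides along DNA and holds DNA polymerases and many repair and chromatin factors to the template. RFC is an ATPase that opens the ring and loads it at primer ends, and RPA binds the single strands exposed when the helicase unwinds the duplex. Before cell walls form, the cereal endosperm nucleus divides again and again in a common cytoplasm, and each division needs a round of DNA replication. In rice, RPA forms 3 complexes that share the small subunit RPA3 and differ in the others: RPA1A with RPA2B, a complex reported in chloroplasts, and RPA1B with RPA2A and RPA1C with RPA2C, reported in the nucleus.

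Signal was read on a linear scale and described as log2 signal. A probe set was counted as above background on an array when its signal passed the 95th percentile of 64 probe sets against reporter and transgene sequences, which was 52.7 on array 1 and 37.9 on array 2. Each of the 13 genes had 1 single-gene probe set, and none had a probe set shared with another gene, so no member can be checked against a second probe set. Among the 3444 genes with several probe sets, the probe sets of one gene spanned a median of 2.56 on the log2 scale, and 58.9% spanned over 4-fold. The order of members by signal is therefore an order of probe sets, not of transcripts.

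Genes for the clamp, the clamp loader and single-strand binding were detected together in 2-day endosperm. All 13 members were above background on both arrays, where 74.1% of the 17905 genes were. Counted as probe sets these are the same 13 calls, beside 42.8% of 57194 rice probe sets. Only 22436 of the rice probe sets were joined to a single gene, so the 42.8% also covers probe sets that were not. The 74.1% of genes is the like share. Of the 13, 12 were over 20 times background on both arrays, where 33.9% of genes were, and RPA2C was near background. The multiple of 20 was chosen after the values were seen. The median of the members' mean log2 signals was 11.40, beside 8.58 over all genes read.

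**Figure D1:**
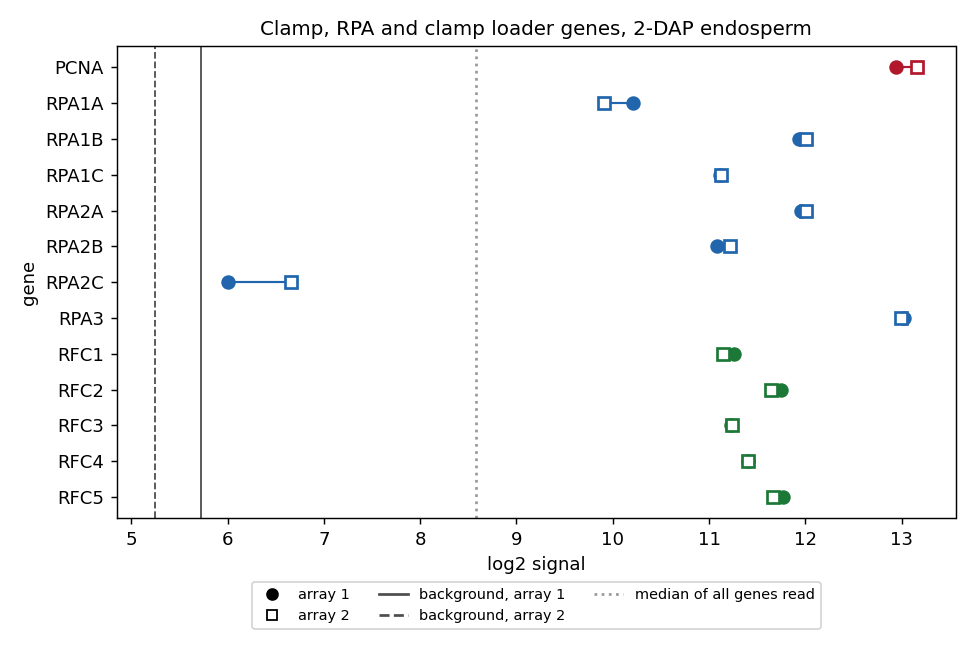
The log2 signal of each of the 13 genes on array 1 (filled circles) and array 2 (open squares), with the background of each array (solid and dashed lines) and the median of all genes read (dotted line). For 12 genes both arrays lie to the right of the median of 8.58, and RPA2C lies near background.

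The clamp gene PCNA (LOC4331062) gave signals of 7845 on array 1 and 9179 on array 2, a mean log2 signal of 13.05 ± 0.16 (SD, n = 2). It stood at the 94.6th percentile of genes on array 1 and the 95.5th on array 2. PCNA therefore lay among the brightest 5% on array 2 and just outside on array 1. Array 2 was 1.17-fold higher, a log2 difference of 0.23. The SD of 0.16 was above the 0.11 found between the arrays over the 1000 genes nearest to it in signal. The difference lay inside the middle 90% of the differences of those genes.

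The small RPA subunit gene RPA3 (LOC4327706), common to the rice RPA complexes, gave signals of 8341 and 8157 on arrays 1 and 2, a mean of 13.01 ± 0.02 (log2, SD, n = 2). Its percentile was 95.1 on array 1 and 94.8 on array 2. The signal ranges of PCNA and RPA3 overlapped, so their order was not fixed by these arrays. These were the 2 members in the top 10% by signal on each array, where 9.53% of genes were, and 0 of 13 members were in the top 5% on each, where 4.72% of genes were.

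The large RPA subunits carry most of the DNA-binding domains of the complex. RPA1B (LOC4332052) gave signals of 3915 and 4112 on arrays 1 and 2, a mean of 11.97 ± 0.05 (log2, SD, n = 2). RPA1C (LOC4337594) gave 2224 and 2226, a mean of 11.12 ± 0.00. Both varied little between the arrays. RPA1A (LOC4330902) gave 1189 and 963, a mean of 10.06 ± 0.22, with array 1 1.23-fold higher. Its SD was above the 0.16 of the 1000 genes nearest in signal, with its difference inside the middle 90% of theirs. RPA1A stood at the 68.0th percentile on array 1 and the 64.8th on array 2.

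The middle RPA subunits contain a further DNA-binding domain and, in animals and yeast, a tail that is phosphorylated in the cell cycle and after DNA damage. RPA2A (LOC4331236) gave signals of 3968 and 4115 on arrays 1 and 2, a mean of 11.98 ± 0.04 (log2, SD, n = 2). RPA2B (LOC4330068) gave 2165 and 2378, a mean of 11.15 ± 0.10. Both were far above background, at 41.1 times or more on each array.

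RPA2C (LOC9266781) was the dim member. It gave signals of 64.1 on array 1 and 101 on array 2, a mean of 6.33 ± 0.46 (log2, SD, n = 2). This was 1.21 times background on array 1 and 2.66 times on array 2. Against the single brightest reporter probe set, at 92.3 on array 1 and 98.7 on array 2, RPA2C was above it on array 2 alone and 12 of 13 members were above it on both arrays, where 65.5% of genes were. Its SD between the arrays was above the 0.39 of the 1000 genes nearest in signal, with its difference inside the middle 90% of theirs. RPA2C is a partner of RPA1C in rice, but their probe sets are not set against each other here, because probe affinity differs.

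Signals of partner subunits were not compared for any of the RPA complexes, for the same reason. Over the 7 RPA genes the mean log2 signals ran from 6.33 to 13.01, with a median of 11.15. The low end was RPA2C, near background, and the next lowest was RPA1A at 10.06.

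The clamp loader genes lay close together in signal. The large subunit gene RFC1 (LOC4350754), whose product forms the loader with the small subunits, gave 2457 on array 1 and 2271 on array 2, a mean of 11.21 ± 0.08 (log2, SD, n = 2). The 4 small subunit genes, which encode related ATPase-family proteins, had means from 11.23 to 11.72. The span over the 5 RFC genes was 0.51 on the log2 scale, well under the median span of 2.56 for probe sets of a single gene, so it gives no order of transcripts.

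Among the small subunits, RFC2 (LOC4351654) gave signals of 3444 and 3195 on arrays 1 and 2, and RFC5 (LOC4334389) gave 3478 and 3258. RFC2 had a mean of 11.70 ± 0.08 and RFC5 of 11.72 ± 0.07 (log2, SD, n = 2), with overlapping ranges. RFC3 (LOC4330895) gave 2404 and 2416, a mean of 11.23 ± 0.00. RFC4 (LOC4336704), read through a probe set of the kind that matches several transcripts of one gene, gave 2703 and 2705, a mean of 11.40 ± 0.00. The RFC genes were thus between the 79.4th and the 85.9th percentile of genes on both arrays. RFC1, RFC2 and RFC5 were each lower on array 2 by log2 differences of -0.11, -0.11 and -0.09.

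Ordered by mean signal, the members were PCNA, RPA3, RPA2A, RPA1B, RFC5, RFC2, RFC4, RFC3, RFC1, RPA2B, RPA1C, RPA1A and RPA2C. Of the 12 neighbouring pairs in this order, 6 had overlapping signals over the arrays: PCNA and RPA3, RPA2A and RPA1B, RFC5 and RFC2, RFC3 and RFC1, RFC1 and RPA2B, and RPA2B and RPA1C. The other 6 did not overlap, with the widest gaps between RPA3 and RPA2A (1.03, log2), RPA1C and RPA1A (1.06) and RPA1A and RPA2C (3.73). Of the 13 members, 7 held the same place on both arrays and none moved by over 2 places. Of the 13, 11 were in the top 25% by signal on each array, where 24.1% of genes were, and the other 2 were RPA1A and RPA2C.

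The arrays differed little for most of these genes. The members' median log2 difference, array 2 minus array 1, was 0.00, beside a median of -0.02 over all genes read. Among the 1000 genes nearest in signal to each member, the median difference ran from -0.11 (for RPA2C) to 0.04 (for PCNA). Of the members, 8 were higher and 5 lower on array 2, and the share of all genes that were higher was not counted. After quantile normalization 7 members were higher, and RFC4 turned from 0.00 to -0.01. The pooled SD over the 13 genes was 0.16, and 0.09 without RPA2C. No member differed by over 2-fold, as 0.844% of the 13263 genes above background did. For PCNA, RPA1A and RPA2C the SD was above that of the 1000 genes nearest in signal, but all 13 differences lay inside the middle 90% of those genes' differences. The SD of the nearest genes is a root mean square, and the share of all genes above such an SD was not counted.

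**Figure D2:**
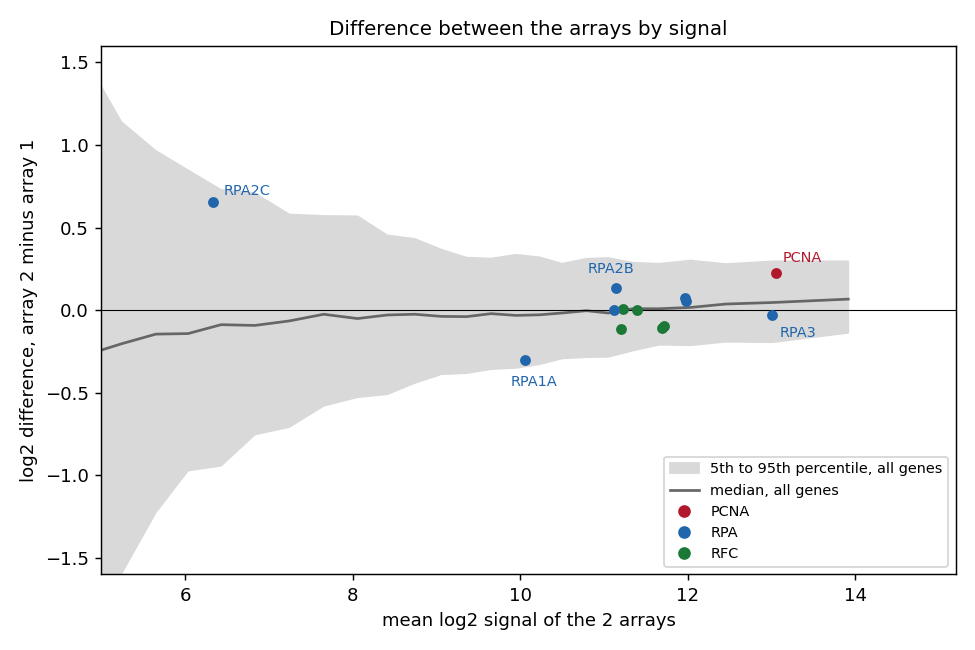
The log2 difference between the arrays (array 2 minus array 1) against the mean log2 signal, for the 13 members (points) and for all genes read (grey band, 5th to 95th percentile; line, median). The members lie inside the band, with RPA2C (0.66) and PCNA (0.23) highest and RPA1A (-0.30) lowest.

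Of the 13 genes, 5 lie on chromosome 2 of assembly ASM3414082v1, whose gene table served for names and neighbours: PCNA, RPA1A, RPA2A, RPA2B and RFC3. RFC3 and RPA1A have 8 annotated protein-coding genes between them, and the other neighbouring members on that chromosome have 169 or more. RPA1B and RFC5 share chromosome 3, with 2270 genes between them, and the remaining 6 members lie on 6 different chromosomes. Several transcripts are listed for RPA3, PCNA and RPA2C, and the arrays give 1 value for each of these genes.

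Other genes of DNA replication, of its regulation and of repair were taken by symbol or synonym. There were 27 such genes, 4 of them listed as regulators and 3 under repair. The lists hold only genes found by name, so they need not be complete. Names searched for polymerases alpha and epsilon, primase, DNA ligase and E2F factors found no gene. A matched origin licensing gene had no single-gene probe set. Of the 27, 26 were above background on both arrays, with a median log2 signal of 10.29. Since 74.1% of all genes read were above background, the counts over lists of 4 genes or fewer below say little about those lists. Of the genes named below, MCM8, FEN1B, FEN1A, MSI1 and PCF1 had 2 probe sets each. Their signals are those of a single probe set, chosen by suffix, then by highest mean. With the mean over probe sets, 25 of the 27 were above background. Of 13 genes listed under origin licensing and helicases 12 were above background, with a median of 10.79. The MCM2 helicase subunit (6194 and 6623), MCM3 (4029 and 4291) and MCM4 (4203 and 4005) were the brightest of them on arrays 1 and 2, and MCM8 (21.0 and 11.6) was not above background.

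All 4 polymerase and lagging-strand genes were above background, with a median of 10.66. FEN1B, a flap endonuclease of the kind that PCNA recruits to Okazaki fragments, gave 2013 on array 1 and 2589 on array 2, a log2 difference of 0.36. POLD1, the catalytic subunit of DNA polymerase delta, gave 2105 and 1596, a difference of -0.40. FEN1A gave 1390.0 and 1454.

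The 2 chromatin assembly genes were above background: MSI1, a histone-binding protein, at 12829 and 13446 on arrays 1 and 2, and FAS2, a subunit of the chromatin assembly factor that PCNA brings to new DNA, at 706 on both. The thymidine kinase gene TK gave 2027 and 1952. All 4 regulator genes were above background, among them PCF2 (1348 and 1516) and PCF1 (1150 and 1361), which encode TCP-family proteins known in rice for binding the PCNA promoter, and RBR2 (1272 and 1082), a retinoblastoma-related gene. All 3 genes listed under repair were above background, with EXO1 at 541 and 509, MSH5 at 487 and 511 and DMC1 at 305 and 294. They were listed by name, and whether they act in repair in this tissue was not tested. Their median of 8.96 was near the 8.58 of all genes read.

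**Figure D3:**
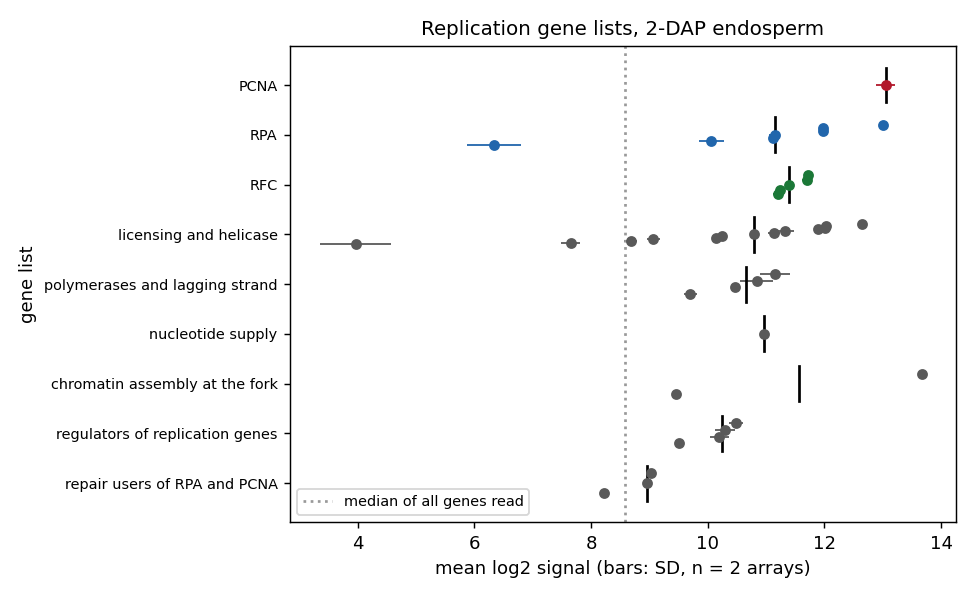
Mean log2 signal with SD (n = 2 arrays) of each gene in the PCNA, RPA and RFC families and in the other lists. Each list's median is the black bar, and the median of all genes read is the dotted line. The RFC genes lie within 0.51 of each other. The RPA genes span 6.33 to 13.01, or 10.06 to 13.01 without RPA2C, which is near background. These are spans of probe sets, whose affinity differs.

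The tissue label was set against markers. All 6 genes listed as endosperm markers (NF-YB1, SWEET4, SWEET11, AGPS2, SUS3 and fie) were above background, where 74.1% of all genes read were. Their summed signals were 69532 on array 1 and 70521 on array 2. Of 4 nucellus, seed coat and embryo markers 2 were above background on both arrays, MADS29 (305 on array 1 and 339 on array 2) and MADS21 (144 and 117). MADS13 (46.1 and 41.3) passed the background of array 2 alone, and the meristem gene OSH1 (1.16 and 11.7) passed neither. The summed signal of the 4 was 496 and 510. All 3 green tissue genes were above background (summed 3117 and 3426), led by CAB2R at 2747 and 3000. Probe affinity differs, so the sums do not compare tissues or measure purity. How specific each marker is to its tissue was not tested. The part of other tissues in the members' levels was not tested either. In bulk tissue the number of nuclei that express a gene and the RNA of each nucleus cannot be told apart in a level.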

How the data were processed

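The authors deposited a linear intensity for every probe set on each array. The submitters' processing notes name MAS5; its version and settings are not stated there. Detection calls were not used. RNA was labelled with a 3' IVT kit, per the labels' protocols. Trimmed by 2% at either end, the mean signal was 499.9 on both arrays, so each had been scaled alone. Values were taken as log2 with no offset. Genes were joined by Entrez identifier to the platform annotation (22436 single-gene probe sets, 95 with several genes left out), and a gene with several probe sets was read by suffix, then by highest mean.

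The members, lists, tests and alternatives were chosen with earlier results of these data known. Members and, of each other list, the 3 brightest genes and those not above background are named. With 1 group of 2 arrays no test between groups was made, and 2 arrays limit the precision. The spread of like genes came from the 1000 genes nearest in mean signal. Steps were tested on simulated data. Promoter and protein sequences planned for comparison were not used here. Software was Python 3.11.15, NumPy 2.4.6, pandas 2.3.3 and matplotlib 3.10.9.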

Additional observations from a re-analysis of the deposited data

How the results depend on the processing

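The number of members above background on both arrays was 13 with the brightest probe set, with the mean over probe sets and after quantile normalization. The share of all genes was 75.9%, 73.5% and 74.1% in these settings. On each array alone, a looser call, all 13 were again above background, beside 75.6% of genes on array 1 and 78.2% on array 2. Against the brightest reporter probe set the number was 12, where RPA2C was lost, beside 65.5% of genes. The members' median log2 signal ranged from 11.40 to 11.41, the latter with 16 added to each signal, which is a shift larger than the very small spread of that median between the arrays. That offset raised RPA2C by 0.27 and the levels of RFC3, RFC4 and RPA1C beyond their own SD. The median log2 difference stayed between 0.00 and 0.01. The genes of the other lists above background numbered 25 or 26 under alternatives that were chosen after seeing the data. Without either array in turn, levels moved by at most 0.33, for RPA2C. The probe set alternatives leave every member as it was, since each has 1 probe set. No paired analysis was possible because there was 1 group. Detection calls were not used, so signals near background, such as that of RPA2C, rest on the reporter probe sets.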
